A study of Mus musculus with 8 samples.

Results

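Expression of 6 genes of a pair of tandem gene families was followed by parental allele in single mouse blastocysts: *Ly6e*, *Ly6a*, *Ly6c1* and *Ly6f* of the Ly6 array on chromosome 15, and the kallikreins *Klk7* and *Klk5* on chromosome 7. They were taken by symbol from a table of 22810 genes, and they were chosen by their parental contrast, the excess of paternal over maternal reads in these same embryos. The parental values of the 6 genes are therefore given as a description, without a test. Differences between strains, total levels and the other genes of both arrays were tested.

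RNA of whole embryos of embryonic day 3.5 was sequenced 1 embryo at a time (SMART-Seq2, a method for full-length cDNA of tiny samples). The embryos came from natural matings without culture. They carried no engineered allele and received no treatment, and they were not matched for sex. In the forward cross the mother was C57BL/6 (B6), the common inbred laboratory strain, and the father was *Mus musculus castaneus* (cast), a strain of another subspecies (3 embryos, numbers 1 to 3). In the reverse cross the mother was cast and the father B6 (5 embryos, numbers 1, 2, 3, 5 and 7). SNPs between both strains assign a read to the B6 or the cast allele, so that each embryo gave a maternal and a paternal library and the 8 embryos gave 16 libraries. The maternal allele is B6 in the forward cross and cast in the reverse cross. The sources used here do not say which embryos were littermates.

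Ly6 proteins are small, cysteine-rich proteins that a glycosylphosphatidylinositol (GPI) anchor holds on the outer face of the cell membrane. Several of them are used as surface markers of blood and stem cells. Kallikrein-related peptidases are secreted serine proteases, made as inactive precursors, that are best known from skin, where they cut the junctions between shedding cells. Most autosomal genes are read from both parental alleles, and imprinted genes, which are read mainly from 1 of them, often lie in clusters.

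All 6 are annotated as protein-coding genes (GENCODE, mm10). *Ly6e* (ENSMUSG00000022587.14) lies at chr15:74955051-74959905 on the plus strand, and *Ly6a* (ENSMUSG00000075602.10) follows after a gap of 34.972 kb at chr15:74994877-74998031 on the minus strand. *Ly6c1* (ENSMUSG00000079018.10) lies another 45.987 kb on at chr15:75044018-75048830 on the minus strand. *Ly6f* (ENSMUSG00000022583.12) lies 219.591 kb beyond it at chr15:75268421-75272235 on the plus strand. *Klk7* (ENSMUSG00000030713.6) lies at chr7:43811294-43816359 and *Klk5* (ENSMUSG00000074155.2) at chr7:43841971-43851181, with 25.612 kb between them, both on the plus strand.

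RefSeq upstream windows, the 250 bases before an annotated start on GRCm38.p6, were held here for 4 of the 6 genes (*Ly6f*, *Ly6c1*, *Klk5* and *Klk7*). The windows of *Ly6f* and *Ly6c1* are shown because these genes, 219.591 kb apart and on opposite strands, shared stretches of sequence there. Capitals mark 4 runs of at least 14 bases that both windows hold in the same order (18, 23, 15 and 18 bases, 74 bases in all).
Ly6f (chr15:75268171-75268420, plus strand): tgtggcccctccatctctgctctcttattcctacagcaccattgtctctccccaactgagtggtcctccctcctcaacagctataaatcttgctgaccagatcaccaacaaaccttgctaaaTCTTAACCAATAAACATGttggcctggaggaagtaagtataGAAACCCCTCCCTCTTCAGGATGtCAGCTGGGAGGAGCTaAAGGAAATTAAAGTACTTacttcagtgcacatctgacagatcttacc
Ly6c1 (chr15:75048838-75049087, minus strand): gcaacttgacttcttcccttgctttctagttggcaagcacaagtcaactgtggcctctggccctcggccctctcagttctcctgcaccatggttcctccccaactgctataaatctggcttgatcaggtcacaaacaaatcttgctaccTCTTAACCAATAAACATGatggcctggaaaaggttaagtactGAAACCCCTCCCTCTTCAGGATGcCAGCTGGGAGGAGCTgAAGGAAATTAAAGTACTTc
The run of 23 bases ended 64 bases before the annotated start of *Ly6f* and 36 bases before that of *Ly6c1*. It was present in 3 of 32851 windows, which belong to these genes alone (*Ly6c1* has a second annotated start whose window overlaps the first). Only 5 genes of the Ly6 list of chromosome 15 have a window in the table used. Both windows also hold the letters TATAAA, as do 12.4% of all windows when both strands are read.

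The windows of *Klk7* and *Klk5* are shown for contrast, with CG dinucleotides in capitals. Their longest common run was 9 bases. The *Klk5* window precedes the RefSeq start, but it lies inside the gene at the GENCODE coordinates given above.
Klk7 (chr7:43811044-43811293, plus strand): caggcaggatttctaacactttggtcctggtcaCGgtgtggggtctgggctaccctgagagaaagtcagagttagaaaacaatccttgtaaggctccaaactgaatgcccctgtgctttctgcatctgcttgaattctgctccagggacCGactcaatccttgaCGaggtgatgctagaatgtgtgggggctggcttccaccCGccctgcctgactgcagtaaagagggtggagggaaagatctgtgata
Klk5 (chr7:43842019-43842268, plus strand): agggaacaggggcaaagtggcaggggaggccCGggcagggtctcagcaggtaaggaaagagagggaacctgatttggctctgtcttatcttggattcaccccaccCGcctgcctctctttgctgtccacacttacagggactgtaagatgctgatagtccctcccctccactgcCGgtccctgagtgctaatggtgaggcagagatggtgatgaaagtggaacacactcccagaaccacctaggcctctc
The upstream windows shown had fewer CG than the median window. *Klk7* had 4 CG, *Klk5* 3, the window of *Ly6c1* above 1 and *Ly6f* 0, against a median of 6 over all 32851 windows. Such values are common, since 37.8% of all windows had at most 3 CG. At least as many CG as *Klk7* were held by 62.2% of all windows, as *Klk5* by 71.0% and as *Ly6c1* by 92.1%. Of the other motifs searched on both strands, GGGCGG was in the *Klk7* window and in 32.7% of all windows, and TTCNNNGAA (7.02%) and the core of the interferon-stimulated response element (2.98%) were in none of the 4 windows shown. A match or its absence describes these letters alone. The methylation of these sequences was not measured in the files used here.

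SNP-spanning reads summed to between 1060063 and 1632695 per embryo, of which B6 alleles held 57.4% to 58.3%. Paternal reads, which are cast in the forward cross, therefore made up 41.7% to 42.3% of all reads in forward and 57.4% to 58.1% in reverse embryos, and the paternal shares of single genes are to be read against these values. The libraries held the markers of a blastocyst: the 6 trophectoderm markers together had 1359 to 6414 reads per embryo and the 7 inner cell mass markers 368 to 626. Some embryos stood apart. Forward embryo 1 had 1352 reads of the 7 macrophage markers, 1349 of them maternal and most from *Lyz2* (1055) and *C1qb* (245), whereas the other 7 embryos had 3 to 72. It also had 60 of the 92 reads of the leukocyte markers, with *Ptprc* at 27. Reverse embryo 1 had the lowest number of trophectoderm marker reads (1359, against 4165 or more in each of the other embryos). *Krt8* and *Krt18* held 18849 and 14877 of the 40783 reads of that list, so its sum mainly describes these keratins. Red blood cell markers had 2 reads in all. Markers of oocytes (6 to 31 reads per embryo), cumulus cells (3 to 13) and uterine and oviduct epithelium (113 to 252) were spread over the embryos. Of their reads 23.0%, 46.2% and 50.5% were paternal. Few genes made most of the cumulus and epithelium reads. *Fshr* held 38 of 52 cumulus reads, 32 of the 38 from B6. *Wfdc2* and *Muc1* held 896 and 231 of 1177 epithelium reads. Whether cells of the mother were present was not tested.

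*Ly6e*, which in the mouse placenta serves as the receptor of syncytin A, had more paternal than maternal reads in 7 of 8 embryos. Forward embryos 1, 2 and 3 had 90, 75 and 52 paternal reads and 109, 32 and 10 maternal reads. Reverse embryos 1, 2, 3, 5 and 7 had 121, 221, 135, 132 and 105 paternal reads and 19, 35, 12, 22 and 7 maternal reads. The 5 reverse embryos thus lay close together, while the 3 forward embryos were spread widely. The paternal share was 88.8% ± 3.71 (SD, n = 5) in the reverse cross and 66.4% ± 19.6 (SD, n = 3) in the forward cross. In forward embryo 1 it was 45.2% (95% exact binomial interval 38.2 to 52.4%), but the paternal allele had a level of 127 and the maternal allele one of 119 (in CPM, counts scaled to the size of the allele library), so that the maternal excess in reads was not one in level. This is the embryo with 1349 maternal macrophage marker reads, and the part of these reads in the maternal *Ly6e* count was not tested. Over both crosses the parental log2 fold change was 1.78 (SE 0.34) toward the paternal allele, and it was 2.24 without forward embryo 1.

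*Ly6a* encodes Sca-1, a surface antigen widely used to sort blood stem cells. Its alleles behaved differently in each cross. Forward embryos 1, 2 and 3 had 96, 62 and 87 paternal reads and 10, 1 and 0 maternal reads. Reverse embryos 1, 2, 3, 5 and 7 had 143, 360, 139, 88 and 159 paternal reads and 75, 170, 176, 154 and 118 maternal reads. The forward embryos were almost wholly paternal, and the reverse embryos carried both alleles, with more paternal reads in embryos 1, 2 and 7 and more maternal reads in embryos 3 and 5. The mean paternal share of forward embryos was 96.3% ± 5.05 (SD, n = 3) and that of reverse embryos 54.3% ± 13.7 (SD, n = 5), and the ranges of both crosses did not overlap. The parental log2 fold change of 1.91 (SE 0.65) is an average over these unlike crosses. Reads counted for *Ly6a* were also counted for *Gm28068*, a non-coding RNA that RefSeq places at chr15:74966931-75043885, across *Ly6a* and *Ly6i*. In all 16 libraries its count lay within 2 reads of the sum of *Ly6a* and *Ly6i* (1937 against 1929 reads in total). Reads of *Ly6a* and of this RNA cannot be told apart.

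*Ly6f*, a less studied member of the array, was paternal in each of the 8 embryos. Forward embryos 1, 2 and 3 had 108, 122 and 311 paternal reads and 0, 6 and 13 maternal reads. Reverse embryos 1, 2, 3, 5 and 7 had 60, 71, 27, 24 and 43 paternal reads and 8, 12, 9, 0 and 18 maternal reads. The direction was the same everywhere, but the excess was larger in forward embryos. Paternal reads made up 97.1% ± 2.53 (SD, n = 3) in forward embryos, whereas they made up 83.9% ± 11.6 (SD, n = 5) in reverse embryos, and these ranges overlapped because reverse embryo 5 had no maternal read. The parental log2 fold change was 3.55 (SE 0.57).

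*Ly6c1* encodes a Ly6C antigen of monocytes and other blood and endothelial cells, and it had few reads. Paternal reads numbered 7, 0 and 8 in forward embryos 1, 2 and 3. They numbered 1, 19, 7, 8 and 13 in reverse embryos 1, 2, 3, 5 and 7. Reverse embryo 7 had 3 maternal reads and no other embryo had any. Paternal reads were thus at least 5.0-fold higher in the forward cross, taking 3 reads over the cross as the limit of a count of 0. The lower end of the 95% counting interval there was 3.59-fold. In the reverse cross they were 16-fold higher (95% counting interval 5.16 to 80.3). Of the 6 endothelial markers, *Pecam1* had 1005 reads (471 paternal), *Vwf* 74 (65 paternal, and 72 of the 74 from B6) and the other 4 had 5 to 10 each, and their part in the *Ly6c1* reads was not tested. The reads of *Ly6c1* are also less secure by sequence. Of its stretches of 50 exonic bases, 32.8% recurred in another Ly6 gene, mostly *Ly6c2* and *Ly6a*, against 18.97% for *Ly6a* and 0% for the other 4 genes. The authors left out reads that mapped to several places, so reads from such stretches would be missing.

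*Klk5*, a trypsin-like protease that can activate other kallikreins, was read almost entirely from the paternal allele. Its paternal reads numbered 19, 4 and 8 in the forward embryos 1, 2 and 3 and 1, 3, 14, 12 and 49 in the reverse embryos 1, 2, 3, 5 and 7. A single maternal read was found, in forward embryo 1. Paternal reads were 31.0-fold higher in the forward cross (95% counting interval 5.17 to 1263). In the reverse cross they were at least 26.3-fold higher at the limit of 3 reads, and the lower end of the 95% counting interval was 20.9-fold. With 79 reads, the absence of maternal reads in the reverse cross allows a maternal share of up to 3.80% at the limit of 3 reads.

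*Klk7*, a chymotrypsin-like protease that loosens contacts between skin cells, had 29, 16 and 0 paternal reads in forward embryos 1, 2 and 3. Reverse embryos 1, 2, 3, 5 and 7 had 0, 36, 12, 9 and 4 paternal reads. Maternal reads were found in forward embryo 1 (4) and reverse embryo 1 (1). The paternal excess was 11.2-fold in the forward cross (95% counting interval 4.10 to 43.1) and 61.0-fold in the reverse cross (10.5 to 2448). Of the 7 embryos with reads, 6 were paternal, and the exception was reverse embryo 1 with its single read.

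The genes with few reads were not low in the same embryos. *Ly6c1* had no read in forward embryo 2 and *Klk7* none in forward embryo 3, embryos in which *Klk5* had 4 and 8. Reverse embryo 1 had 1 read of each of *Ly6c1*, *Klk5* and *Klk7*, at a depth (1505155 reads) above that of most embryos. The same embryo had no read of the stratified epithelium markers, which had 4 to 37 reads in the other 7 embryos. Of the 158 reads of that list 148 were of *Krt10*, with 5 each of *Lor* and *Trp63*. The remaining 4 of its 7 markers had no reads, so the list does not establish that such cells were present. Reverse embryo 1 also had the fewest trophectoderm marker reads, and the part of the trophectoderm in the result was not tested. In whole embryos, fewer cells of a type and less RNA per cell cannot be told apart. The reads carry no molecular identifiers, so the intervals and limits given cover counting error only.

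**Figure D1:**
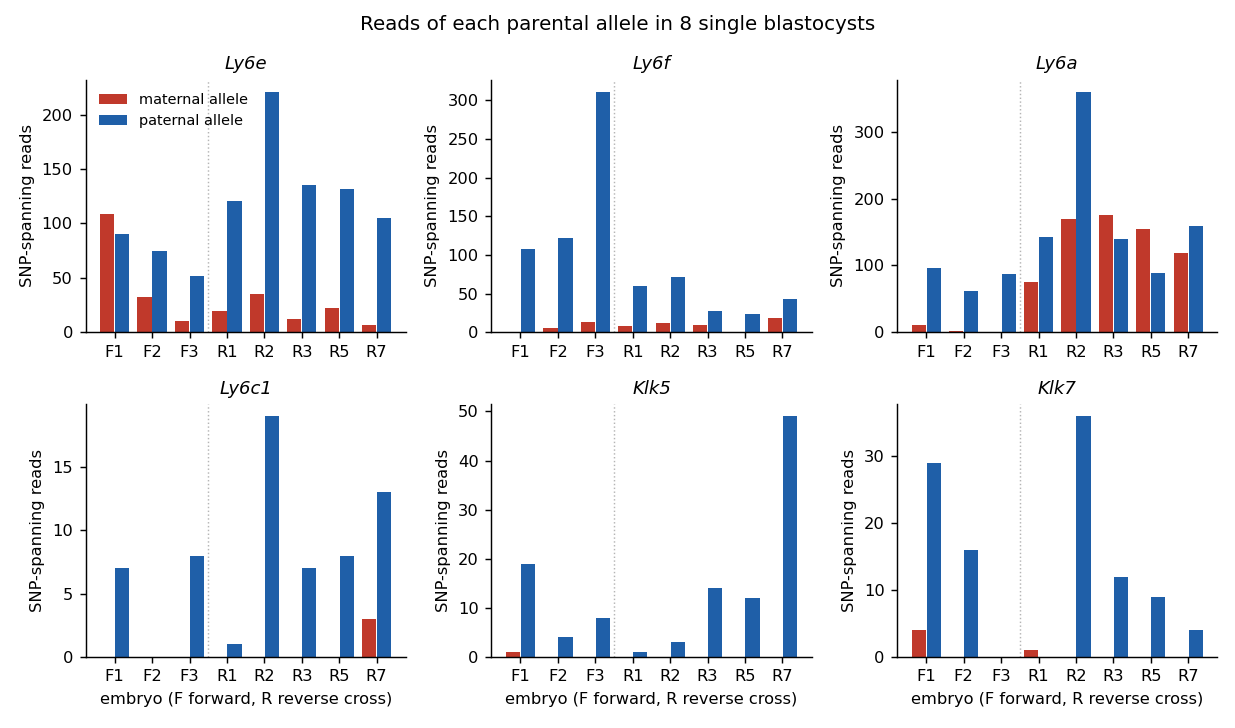
SNP-spanning reads of the maternal (red) and paternal (blue) allele of each gene in each embryo, on a linear axis that starts at 0; F1 to F3 are forward and R1 to R7 reverse embryos, separated by the dotted line. Paternal bars are the higher ones in 7 of 8 embryos for Ly6e and in 8 of 8 for Ly6f, and maternal bars of Ly6a are tall in the reverse cross alone.

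**Figure D2:**
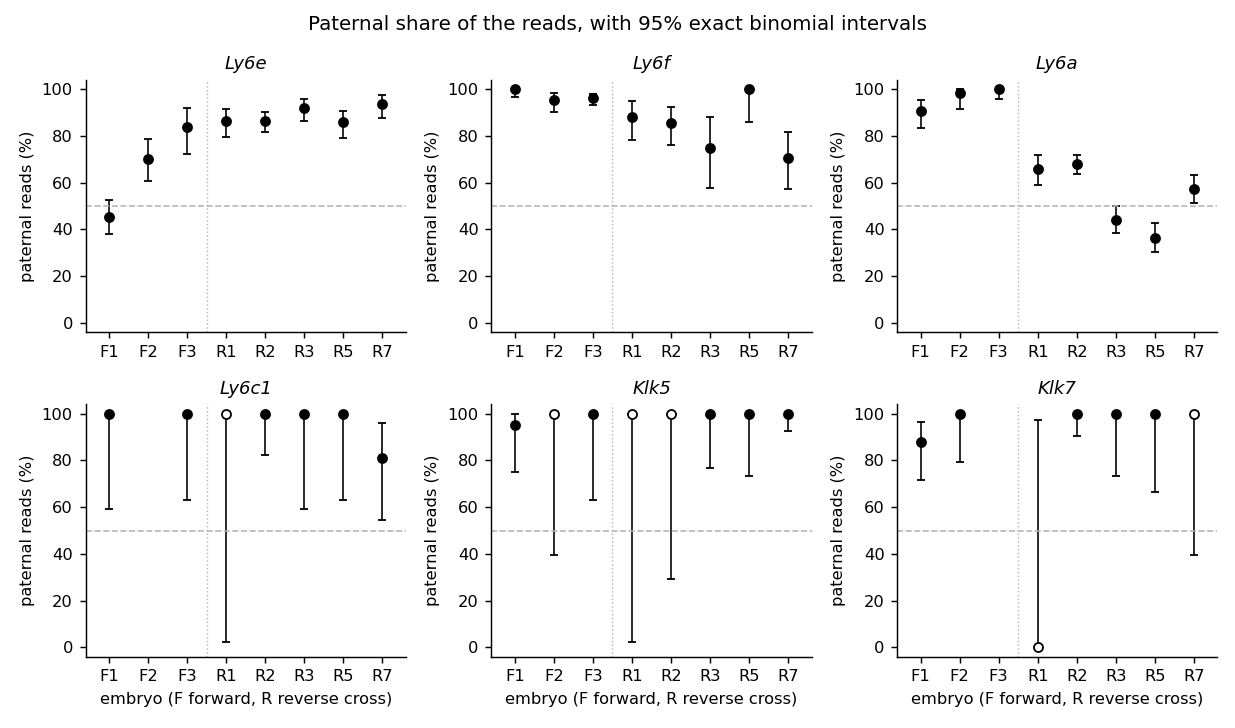
Share of paternal reads in each embryo (points) with 95% exact binomial intervals (bars); open points rest on fewer than 5 reads, embryos without reads have no point, and the dashed line marks equal reads. For Ly6a the forward embryos lie between 90.6% and 100% and the reverse embryos between 36.4% and 67.9%.

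The paternal lean was compared with that of all genes tested. Of 12565 autosomal genes with at least 10 reads in at least 1 library, 1.42% were called between parental alleles by edgeR's quasi-likelihood test (Benjamini-Hochberg adjusted p of at most 0.1), 1.11% for the paternal and 0.31% for the maternal side. The median parental log2 fold change was -0.01 over all of them. The median of the 6 genes was 3.69, which is what they were picked for.

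Whether the B6 or the cast allele was higher is another contrast of the same libraries, and it was tested for the 6 genes in the same model. Strain and parent are not fully separate in this design, since 3 forward and 5 reverse embryos give their estimates a correlation of -0.25. Of the 6 genes, 1 differed between strains, *Ly6f*, at a background of 15.4% of all genes tested (10.9% toward B6 and 4.47% toward cast).

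*Ly6f* was lower from B6 than from cast alleles (log2 fold change -1.84, SE 0.55, edgeR adjusted p = 0.0271). In CPM of the allele library, the cast allele stood at 322 ± 222 (SD, n = 3) when paternal and at 17.2 ± 14.6 (SD, n = 5) when maternal. The B6 allele stood at 58.7 ± 21.1 (SD, n = 5) when paternal and at 9.67 ± 9.71 (SD, n = 3) when maternal. By these means cast was the higher allele from either parent, and paternal the higher parent in either strain. Each such comparison sets embryos of 1 cross against those of the other. The maternal values overlapped, at 0 to 19.4 CPM for B6 and 0 to 40.1 CPM for cast. A strain term that differs from 0 means that the parental excess differed between the crosses. The call was also made when alleles were paired within embryos by an embryo term (edgeR adjusted p = 0.00136), and without any 1 of the 8 embryos.

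For *Ly6a* the call depended on the tool and on the settings, among them the pairing of alleles within embryos. The B6 allele had 4.18 ± 5.91 CPM (SD, n = 3) when maternal and 233.9 ± 115 (SD, n = 5) when paternal, while the cast allele had 243 ± 80.9 (SD, n = 5) when maternal and 139 ± 19.6 (SD, n = 3) when paternal. The low value was thus that of the maternal B6 allele, and the cast allele was not higher than B6 when paternal. The strain log2 fold change was -1.96 (SE 0.65) with an edgeR adjusted p of 0.274. In the paired fit it was -2.49 (SE 0.34) with an edgeR adjusted p of 6.92e-07, and DESeq2 also called it (adjusted p = 0.0318).

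*Ly6e* leaned the other way. Its B6 allele had 189.5 ± 43.7 CPM (SD, n = 5) when paternal and 61.8 ± 53.0 (SD, n = 3) when maternal, whereas its cast allele had 123 ± 26.0 (SD, n = 3) and 30.9 ± 13.96 (SD, n = 5), again paternal first. The strain log2 fold change of 0.80 (SE 0.34) was not called (edgeR adjusted p = 0.138). In the paired fit it was 0.68 (SE 0.25) and was called (edgeR adjusted p = 0.0640), as were 25.5% of all genes. Without forward embryo 1 it was 0.37 (edgeR adjusted p = 0.714), so that this value depended on the embryo with macrophage markers.

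For the other 3 genes the strain estimates were small against their errors. They were -0.16 (SE 1.09) for *Ly6c1*, 0.74 (SE 0.92) for *Klk5* and 0.04 (SE 1.02) for *Klk7* on the log2 scale, with edgeR adjusted p of 0.946, 0.677 and 0.980. With so few reads, these errors leave room for a strain difference of 2-fold or more in either direction.

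**Figure D3:**
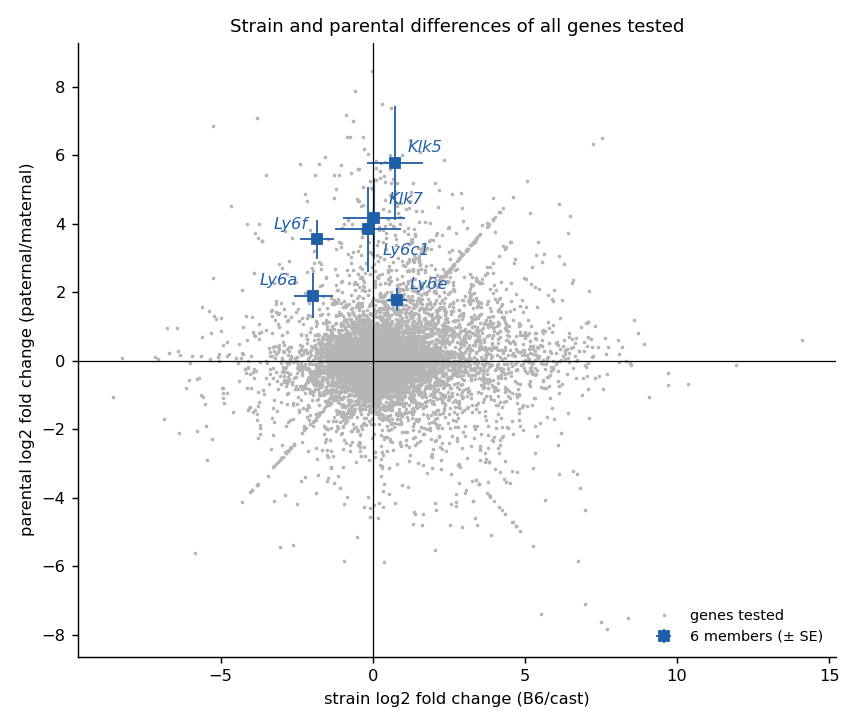
Each grey dot is 1 of 12565 genes tested, placed by its strain log2 fold change (B6 over cast, horizontal) and its parental log2 fold change (paternal over maternal, vertical); blue squares are the 6 genes with standard errors. All 6 lie above 0 on the vertical axis, which chose them, while Ly6f and Ly6a lie to the left (cast) and Ly6e and Klk5 to the right (B6).

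Both alleles together gave the total level of each gene, which does not use the parental ratio. By edgeR 9 of 13078 genes (0.0688%) differed between the crosses, and none of the 6 genes did, although 2 of them (*Ly6a* and *Ly6f*) had an unadjusted p under 0.05, as had 7.33% of all genes. DESeq2 called 1.04% of all genes and both of these. On a single set of simulated counts 20.2% of the DESeq2 calls and 9.77% of the edgeR calls were false, at an adjusted p of at most 0.1. That set gave each gene a variability taken from its mean level alone, so it does not decide the calls of *Ly6a* and *Ly6f*. The same 2 genes were the ones whose crosses did not overlap, as was the case for 6.24% of the genes tested.

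Total *Ly6a* was higher in the reverse cross. The 3 forward embryos lay between 56.2 and 71.3 CPM and the 5 reverse embryos between 130.9 and 335 CPM. The log2 fold change, reverse over forward, was 1.88 (SE 0.34) with an edgeR adjusted p of 0.122 and a DESeq2 adjusted p of 7.70e-05. Without reverse embryo 1, the one with the fewest trophectoderm marker reads, the edgeR adjusted p was 0.00202.

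Total *Ly6f* was lower in the reverse cross. It lay between 65.9 and 265 CPM in forward and between 18.2 and 59.1 CPM in reverse embryos. The log2 fold change was -1.88 (SE 0.46), with adjusted p of 0.264 by edgeR and 0.0446 by DESeq2, and of 0.0589 by edgeR without reverse embryo 1. *Ly6a* and *Ly6f* thus lay on opposite sides, within 1 array.

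The remaining totals overlapped between the crosses. *Ly6e* had 89.2 ± 35.7 CPM (SD, n = 3) with a B6 mother and 119 ± 28.2 CPM (SD, n = 5) with a cast mother, a log2 fold change of 0.41 (SE 0.35, edgeR adjusted p = 0.807). *Ly6c1* had 3.61 ± 3.33 and 8.004 ± 5.82 CPM, *Klk5* 7.44 ± 4.38 and 14.2 ± 19.2 CPM, and *Klk7* 11.5 ± 10.4 and 8.82 ± 8.53 CPM in 3 forward and 5 reverse embryos. Levels were not compared between genes, since each gene's reads depend on how many SNPs it holds.

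**Figure D4:**
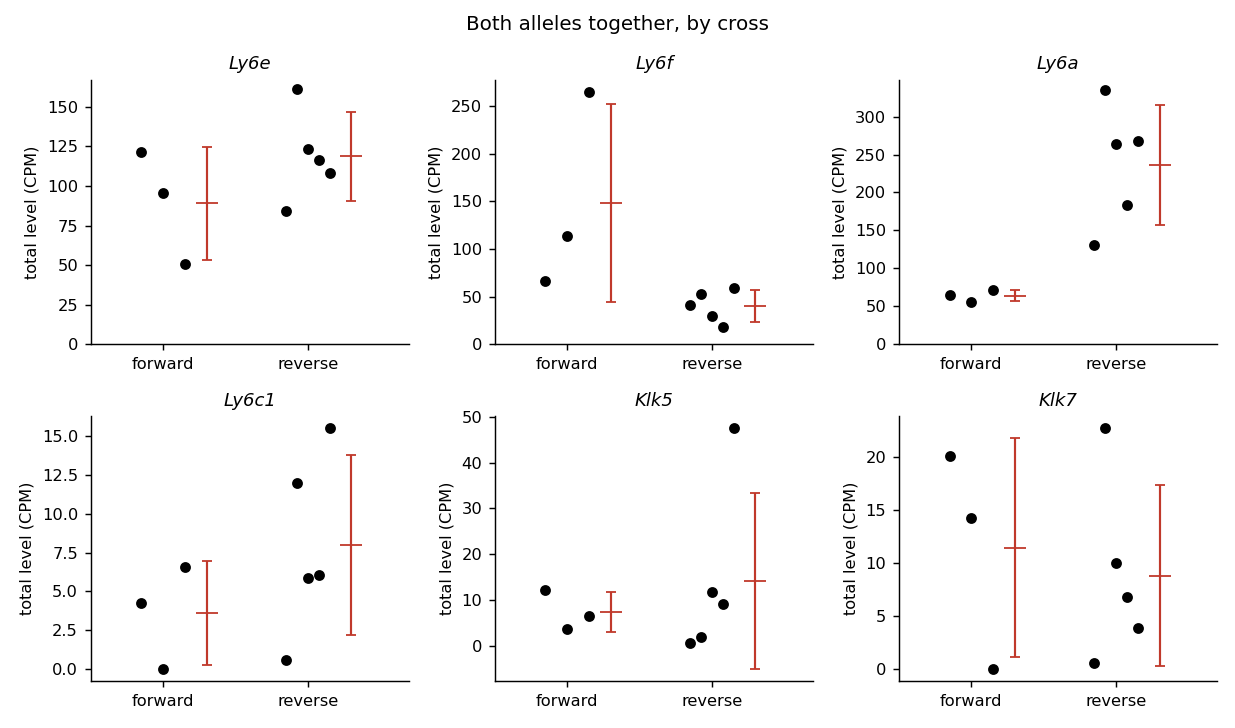
Total level of both alleles (CPM, linear axis) in each forward (n = 3) and reverse (n = 5) embryo, as black points, with the mean and SD in red. The crosses are separate for Ly6a (reverse above forward) and Ly6f (forward above reverse) and overlap for the other genes.

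Most other genes of both families had few reads. Of 22 further Ly6 genes of chromosome 15, 12 were in the table and 2 had at least 20 reads, *Ly6i* and *BC025446*. The remaining 10 had 1 to 17 reads each, *Ly6g* the most. Of 24 further kallikreins, 10 were in the table and *Klk1b21* was the single one with at least 20 reads. *Klk6*, chosen after its values were seen because it lies between *Klk7* and *Klk5*, had 11 reads in 3 reverse embryos and none in the forward cross. All 11 were paternal and therefore B6, so parent and strain cannot be told apart. Of 19 Ly6 genes elsewhere in the genome, 17 were in the table and 9 had at least 20 reads.

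None of the 10 of these genes that could be tested was called between parental alleles. This held for edgeR, for DESeq2 and for the paired fit, and none had an unadjusted p under 0.05 by edgeR. Of all genes tested 1.42% were called by edgeR, so the absence of calls among 10 genes does not set them apart. The reads of *Ly6i*, which lies between *Ly6e* and *Ly6a*, were cast in both crosses, since 18 of 19 forward reads were paternal and all 72 reverse reads were maternal. The parental log2 fold change was -1.26 (SE 0.97, edgeR adjusted p = 1) and the strain log2 fold change -5.51 (adjusted p = 3.89e-04). *BC025446*, between *Ly6c1* and *Ly6f*, had 19 paternal and 11 maternal reads, with a parental log2 fold change of 0.28 (adjusted p = 1).

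Away from the array, *Cd59a* and *Cd59b*, which shield cells from complement, had 497 and 112 paternal against 293 and 38 maternal reads. Both were called between strains. The strain log2 fold change was 0.96 for *Cd59a* (edgeR adjusted p = 0.0780), 2.35 for *Cd59b* (0.0141) and 4.12 for *Lypd6* (0.00496), all toward B6. These were 3 of the 7 tested genes of this list, where 10.9% of all genes tested were called toward B6. *Plaur*, the urokinase receptor, had the largest parental log2 fold change of the list at 1.07 (adjusted p = 0.924). *Pinlyp* had 218 paternal and 106 maternal reads, *Lypd6b* 24 of each, and *Ly6g6d* 53 and 56. *Ly6g6c* and *Ly6g6e* had 21 and 45 reads and were too thinly spread to be tested. *Klk1b21* had 28 reads, all of them B6 (strain log2 fold change 4.42, edgeR adjusted p = 0.0451). That call was not made by DESeq2 or in the paired fit.

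Genes that act with the 6 were also examined. Of 14 inhibitors, activators and substrates of kallikreins, 9 were tested and none was called between parental alleles by edgeR, by DESeq2 or in the paired fit (unadjusted p under 0.05 in 0 of 9 by edgeR). Their median parental log2 fold change was 0.17. With 1.42% of all genes tested called by edgeR, the absence of calls among 9 genes does not set them apart. *Serpinb6a*, a protease inhibitor, had 4929 paternal and 3787 maternal reads, and *Prss8*, a membrane-bound activating protease, 1415 and 1194. *Spint2* had 966 and 885 and *Tmprss2* 523 and 474. *Spink2* was higher from cast (strain log2 fold change -4.13, edgeR adjusted p = 1.06e-04). It was the 1 of 9 tested genes called between strains by edgeR, where 15.4% of all genes tested were. *Spink5*, the skin inhibitor of both kallikreins, was not analysed here.

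Of 29 genes that build or remodel GPI anchors, 20 were tested and none was called between parental alleles by edgeR, with 1 at an unadjusted p under 0.05, which DESeq2 called. Their median parental log2 fold change was -0.02. By edgeR 1.42% of all genes tested were called, so 20 genes without a call are not set apart. *Pigl*, *Pigh*, *Pigb* and *Pigk* had the most reads, 899 to 1645 each. *Pgap1*, which trims the anchor after attachment, leaned to the maternal allele (133 against 21 reads, log2 fold change -2.50). It was not called by edgeR (adjusted p = 0.149) but was in the paired fit (edgeR adjusted p = 0.0360), where 3.11% of all genes were. Between strains *Pigb* (1.24, edgeR adjusted p = 0.00547) and *Pigp* (2.65, 0.0119) were higher from B6 and *Pigo* (-1.02, 0.0650) from cast. These 2 of 20 toward B6 and 1 of 20 toward cast are near the shares of all genes tested (10.9% and 4.47%).

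Genes around the 6 were examined within 500 kb. Of 62 such genes with reads, 22 could be tested, 9 near the Ly6 genes and 13 near the kallikreins. None was called between parental alleles by edgeR or by DESeq2, where 1.42% of all genes tested were called by edgeR. By edgeR 8 had an unadjusted p under 0.05, all toward the paternal allele, where 4.37% of all genes tested had. That count depended on the setting. It was 6 with DESeq2 and in the paired fit, and 3 (without forward embryo 3) to 7 on leaving out 1 embryo. With at least 10 reads in every embryo it was 0 of 4 tested, and without a filter on low counts 11 of 62, 9 of them paternal. Of the 22, 20 had a log2 fold change above 0, against 49% of all genes tested, with a median of 0.88 against -0.01. These genes are not separate observations. *Jrk* and *Gm32994* had the same counts in each library, *Gm10109* and *1700028J19Rik* nearly so, and *Gm28068* shares its reads with *Ly6a*. The one gene called in the paired fit was *Gm28068*, and as its reads are those by which *Ly6a* was chosen, it is not counted as a call of a nearby gene.

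The values varied along both arrays. The 8 genes with an unadjusted p under 0.05 had parental log2 fold changes between 2.26 (*Siglecg*, -403.090 kb from the start of *Klk7*) and 3.80 (*1700028J19Rik*, 418.517 kb). Some of these rested on 1 strain. *Siglecg* had 121 paternal and 3 maternal reads in the reverse cross but 0 and 5 in the forward cross, and *Gm28114* (3.10, 393.955 kb from the start of *Ly6e*) had 135 and 0 but 1 and 10. *Top1mt* (2.90, 701.984 kb) was paternal in both, with 27 and 0 forward and 29 and 10 reverse reads, and *Jrk* (3.62, -252.750 kb) had 38 and 4 forward and 19 and 0 reverse reads. Other genes lay near 0. *Etfb*, a mitochondrial electron carrier with 5601 reads, had 0.14 at -367.211 kb from *Klk7*, and *Zc3h3*, with 165 paternal and 162 maternal reads, had 0.05 at 799.379 kb from *Ly6e*. No gene between *Ctu1*, at -139.278 kb with 0.19, and *Klk1b21*, at 291.034 kb with 0.76, had enough reads to be tested other than *Klk7* and *Klk5* themselves. Between strains 6 of the 22 were called, 5 of them toward B6, where 15.4% of all genes tested were called and 10.9% toward B6.

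**Figure D5:**
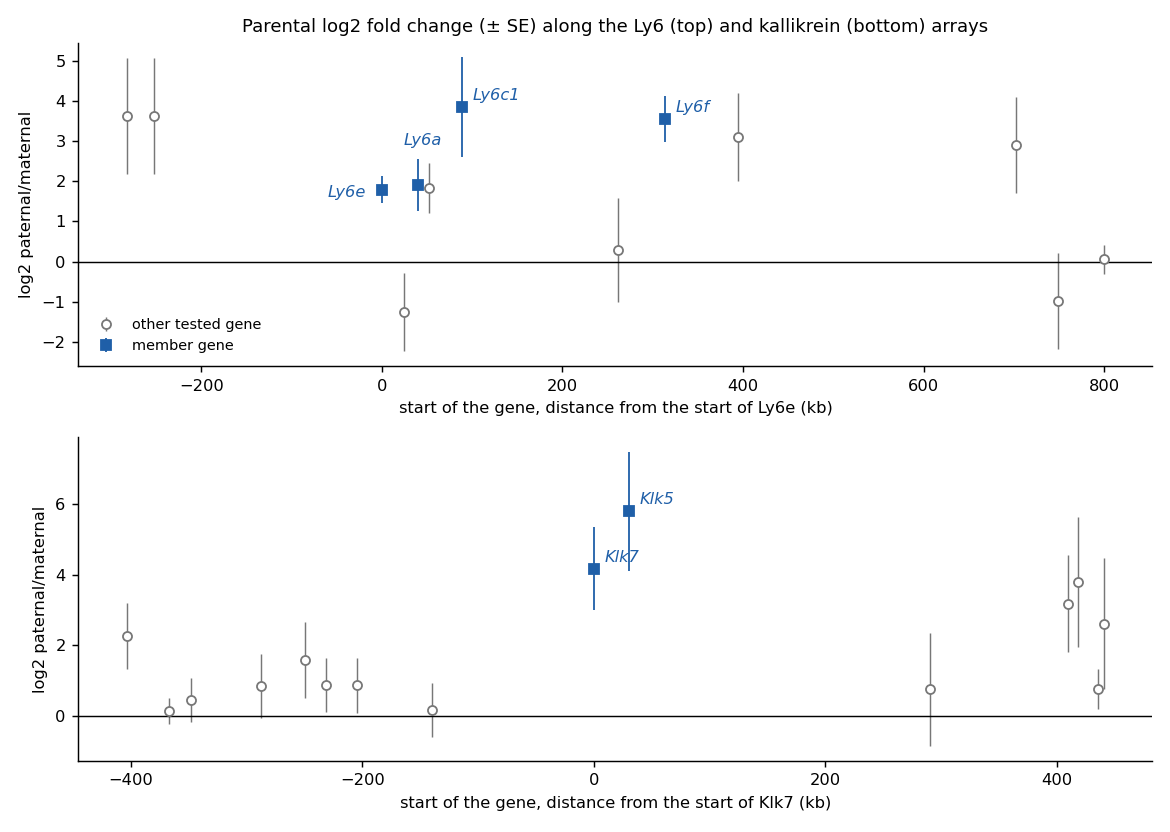
Parental log2 fold change (paternal over maternal, ± SE) of the 6 genes (blue squares) and of the other tested genes within 500 kb (open circles), by the distance of their start from the start of Ly6e (top) or Klk7 (bottom) in kb. Most circles lie above 0, and Ly6i (-1.26, SE 0.97) lies below 0 between Ly6e and Ly6a.

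Across the 8 embryos the total levels of the 6 genes ran most like those of different genes. Over 9329 genes with at least 100 reads, the log2 CPM of *Ly6e* was most like that of *Adamts8*, *Pxmp4* and *Lpcat1* (Pearson's r 0.946, 0.945 and 0.936). For *Ly6a* these were *Gm28068* (0.996, the shared reads), *Fbp1* (0.965) and *Scd2* (0.953), and for *Ly6f* they were *E330020D12Rik* (0.911), *Troap* (0.887) and *Sgtb* (0.887). *Ly6c1* was most like *Hspb6* (0.973), *Gm12223* and *Elac2*, *Klk5* most like *Ntrk2* (0.983), *Tceb3* and *Dram1*, and *Klk7* most like *Cry2* (0.951), *Foxn3* and *Tmem116*. With 8 points and so many genes such values describe these embryos alone. No gene of the 6 was among the 3 closest for another. *Ly6c1*, with 66 reads, was below the limit of 100 and could not appear there.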

How the data were processed

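The authors aligned single-embryo RNA-seq reads to mm10 with STAR (2.5.2b in the submitters' processing notes, while the methods print another version), left out reads mapping to multiple places and kept reads over B6 or cast SNPs. The deposited values are raw counts of these reads per gene, embryo and allele that the authors took from the Allelome.Pro pipeline. They are not normalized. Whether counting used strand is not given in the sources used here. Maternal and paternal alleles were assigned from each embryo's cross. The main test was edgeR 4.0.16 (R 4.3.3): TMM factors over 16 allele libraries, strain and parent as terms, quasi-likelihood test, autosomal genes with at least 10 reads in at least 1 library, Benjamini-Hochberg over all genes, called at an adjusted p of at most 0.1. Totals used the sum of both alleles per embryo with cross as the term. Standard errors are Wald errors. Symbols were placed with GENCODE and, failing that, RefSeq. The 1109 genes without a match and the X-linked genes were left out. Where no litters are named, p-values of the totals and of the paired fit described below measure the spread between these embryos. The main fit of the alleles has no embryo term and takes both alleles of 1 embryo as separate libraries. Its p-values therefore measure the spread between allele libraries.

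The members and lists were chosen with earlier results of these data known. Named genes are the 6, other Ly6 and Klk genes with at least 20 reads, genes called between parental alleles within 500 kb, called genes and up to 4 with the most reads of the partner lists, and the 3 genes most like each of the 6. Other genes named (markers, thinly read members of the arrays and further genes within 500 kb) were chosen after their values were seen. The alleles of 1 embryo are a pair by design, so a paired fit with a term for each embryo is given where it changes a call. The r of their deviations was 0.0984 to 0.594. Alternatives were DESeq2 1.42.0, RLE factors, 1 library size per embryo, other filters, X-linked and unplaced genes included, and leaving out each embryo. Both tools were run on a single set of simulated counts per contrast, with known changes. The share of false calls was 6.11% to 9.77% with edgeR and 17.5% to 20.2% with DESeq2, at an adjusted p of at most 0.1. DESeq2 was thus the less strict tool on these counts. They had no variability particular to each gene and no pairing of alleles, so they do not decide the calls of single genes. Binomial intervals are exact (SciPy).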

Additional observations from a re-analysis of the deposited data

Results flagged for a closer look

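Among 11 sets of 5 reverse embryos (shares and totals of the 6 genes), 3 held a value far from the others. Chance gives this in about 1 in 20 sets, but this rate does not apply to the 2 sets of shares, in which the other 4 embryos stood at 100% and any maternal read stands apart. The shares are also values of the contrast that chose the genes. The paternal share of *Ly6c1* was lowest in reverse embryo 7, at 81.2% against 100% in the other embryos of the cross, from 3 maternal reads among 16. The paternal share of *Klk7* was 0% in reverse embryo 1, which rests on 1 read. The total of *Klk5* was highest in reverse embryo 7, at 47.5 CPM. The parental excess of *Ly6f* differed between the crosses, with a strain log2 fold change of -1.84 (edgeR adjusted p = 0.0271).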

How the results depend on the processing

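All 87 recomputed parental log2 fold changes of the 6 genes were above 0. The genes were chosen for this excess in the same reads, so these signs are no test of it. The strain call of *Ly6f* was made under each alternative run. The other Ly6 and kallikrein genes had 0 parental calls throughout. Of the 6 genes, 1 was called between strains, but 2 with DESeq2 or 1 library size per embryo, 3 without a filter on low counts and 3 with the replicate block, the paired fit (*Ly6f*, *Ly6a* and *Ly6e*). Leaving out 1 embryo gave 1 to 2 such calls, with *Ly6e* added without forward embryo 3 or reverse embryo 1. Among nearby genes, parental calls were 0, 4 without a filter, 1 with the replicate block (*Gm28068*, which shares the reads of *Ly6a*) and 0 to 1 on leaving out 1 embryo (*Gm28114* without reverse embryo 1). Calls on the total of the 6 genes were 0, but 2 with DESeq2, 2 without a filter and 0 to 2 on leaving out 1 embryo (*Ly6a* and *Ly6f* without reverse embryo 1, *Ly6a* without reverse embryo 3).

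Over all genes, the 178 parental calls became 406 without a filter, 75 with at least 10 reads in every embryo, 391 with the replicate block and 524 with X-linked and unplaced genes. The 1933 strain calls became 1062 with at least 10 reads in every embryo and 3208 with the replicate block, and 1205 (without forward embryo 1) to 2456 (without reverse embryo 1). The 9 calls between crosses became 136 with DESeq2, 143 without a filter, 0 with at least 10 reads in every embryo, 17 with X-linked and unplaced genes and 17 with the replicate block by embryo number, and 3 (without forward embryo 1) to 159 (without reverse embryo 1), with 53 without reverse embryo 3. Causes were not tested.

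Log2 fold changes of shallow genes changed sign without any call. The strain value of *Ly6c1* was 0.16 with 1 library size per embryo and -0.55 to 0.35 on leaving out 1 embryo, that of *Klk5* -0.24 to 1.01 and that of *Klk7* -0.51 to 0.44. Between crosses, *Klk5* had -1.16 and *Klk7* 0.16 with the replicate block by embryo number, and -0.39 to 1.42 and -1.12 to 0.31 on leaving out 1 embryo. The labels name no pairing of the crosses by embryo number (r of the deviations 0.221, 0.0192 and 0.202), and the block by number changed no call of the 6 genes. The filter of at least 10 reads in every embryo left *Ly6c1*, *Klk5* and *Klk7* untested.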
